A study of Homo sapiens with 36 samples.

Results

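The 9 genes described here code for proteins that make prostaglandins, recognise them or break them down. They are PLA2G4A, PTGS1, PTGS2, PTGES, PTGES3, PTGIS, PTGER2, PTGER4 and HPGD. They were chosen by name, with earlier results of these data known, as the rows of a count table of 57232 genes whose Ensembl identifiers carry these symbols. Of the 9 genes, 8 had enough counts to be tested and HPGD did not. The cells were IMR90 ER:RAS, an established line of human lung fibroblasts in which RAS is joined to an oestrogen receptor domain. The compound 4-hydroxytamoxifen (4OHT) switches this RAS on and drives the cells into senescence, a lasting arrest of division with strong secretion. All groups, the controls included, carried the construct, were at passage 14 and were grown for 6 days in DMEM with 10% FBS, with fresh medium on day 3. Proliferating cells received no 4OHT, and senescent cells received 100 nM 4OHT. Vehicle was then given to proliferating cells, while senescent cells were given digoxin, ouabain or vehicle alone. Digoxin and ouabain are cardiac glycosides, plant compounds that block the sodium pump. RNA of these 4 conditions was taken at 16 h and at 36 h, and a further 36 h arm also received an inhibitor of caspases, the proteases of apoptosis. This made 12 groups with n = 3 libraries each. The labels give no dose for the drugs and neither a name nor a dose for the inhibitor, no drug was given to proliferating cells, and the labels do not say whether the line is a clone.

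Prostaglandins are short-lived lipid messengers that act on the cell that makes them and on its neighbours. A phospholipase frees arachidonic acid from membranes, a cyclooxygenase turns it into prostaglandin H2, and terminal synthases convert that into prostaglandin E2 (PGE2), prostacyclin and others. PGE2 acts on the receptors EP1 to EP4, of which EP2 and EP4 raise cyclic AMP and EP3 in most settings lowers it. HPGD starts the breakdown of PGE2. Lung fibroblasts are known as a source of PGE2, and PTGS2 is an inducible gene of stressed and inflamed cells.

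Values are CPM, counts scaled to a common library size, with SD, or log2 changes with SE. A gene is called where the p-value of edgeR's quasi-likelihood test, adjusted over 18696 tested genes by the method of Benjamini and Hochberg, was under 0.05. The p-values rest on the spread between the 3 libraries within groups, estimated over all 12 groups together and not from the compared groups alone. This spread may be technical, since separate cultures for the replicates are not stated in the labels. In bulk RNA, fewer cells of a type and less RNA per cell cannot be told apart. Library totals lay between 10854351 and 21446415 counts. All 10 fibroblast markers reached 1 CPM in some library, and their summed level lay between 11060 and 36100 CPM, with the lowest group mean (12210 CPM) with digoxin and inhibitor at 36 h and the highest (32020 CPM) in proliferating cells with the inhibitor. Mitochondrial rRNA made up 0.775% to 1.006% of counts in 8 of the 9 proliferating libraries and 2.521% in the other, 1.157% to 1.522% in senescent vehicle libraries and 1.465% to 2.426% in drug-treated ones. The summed markers of other cell types reached at most 21.3 CPM in a library, with group means of 1.42 to 17.3 CPM for the epithelial list (SFTPC at 0 in all libraries), 6.02 to 16.9 CPM for the endothelial list, 1.26 to 7.18 CPM for the leukocyte list and 0.133 to 1.22 CPM for the platelet list. The highest group mean was in proliferating cells for the epithelial and endothelial lists and in drug-treated cells for the leukocyte and platelet lists, and the part of these markers and of mitochondrial rRNA in the results was not tested. Replicate 2 of proliferating vehicle at 16 h and replicate 2 of senescent ouabain at 16 h stood apart from their groups, with a median absolute log2 difference to their replicates of 0.374 and 0.271.

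The promoters of PTGS2, PTGES and PTGER4 are shown first. PTGS2 and PTGES were the members that rose with both drugs at 36 h, and PTGER4 was the member with the largest fall at 16 h with both drugs, with libraries that overlapped with vehicle at 36 h. Each window holds 250 bases before and 50 bases after the RefSeq start site in GRCh38.p14, written 5′ to 3′ in the direction of the gene, which is the minus strand for PTGS2 at chr1:186680374-186680673 and for PTGES at chr9:129752993-129753292 and the plus strand for PTGER4 at chr5:40679665-40679964. Capitals mark matches to a searched motif.
PTGS2: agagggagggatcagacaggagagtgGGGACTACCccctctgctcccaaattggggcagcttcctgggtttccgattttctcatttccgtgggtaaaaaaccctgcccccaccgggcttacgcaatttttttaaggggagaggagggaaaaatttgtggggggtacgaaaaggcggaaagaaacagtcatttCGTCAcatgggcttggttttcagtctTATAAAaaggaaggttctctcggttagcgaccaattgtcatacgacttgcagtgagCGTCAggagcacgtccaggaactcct
PTGES: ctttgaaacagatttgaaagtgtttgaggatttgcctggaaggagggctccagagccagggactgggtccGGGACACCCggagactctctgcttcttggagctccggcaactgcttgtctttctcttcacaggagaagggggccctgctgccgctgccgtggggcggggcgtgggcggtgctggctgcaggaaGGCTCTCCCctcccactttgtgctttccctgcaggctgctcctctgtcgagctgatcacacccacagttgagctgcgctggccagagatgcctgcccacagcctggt
PTGER4: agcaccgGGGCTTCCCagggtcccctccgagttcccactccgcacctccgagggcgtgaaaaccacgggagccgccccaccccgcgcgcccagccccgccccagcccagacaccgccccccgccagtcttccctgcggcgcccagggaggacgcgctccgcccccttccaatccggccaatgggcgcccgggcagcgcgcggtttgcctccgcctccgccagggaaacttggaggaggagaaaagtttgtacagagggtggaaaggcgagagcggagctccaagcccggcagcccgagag
In the PTGS2 window, TATAAA (the TATA box) begins at base -32 from the start site, the cyclic AMP response core TGACG lies on the minus strand at -58 and at 25, and GGGANNNCC, an NF-kB type of motif, matches at -224. The PTGES window holds the NF-kB type of motif at -180 and, on the minus strand, at -57, and the PTGER4 window holds it on the minus strand at -243. Of 35116 RefSeq windows of this length, 22.9% hold GGGANNNCC, 24.6% TGACG and 11.5% TATAAA on either strand. Windows were found for 8 of the 9 genes, 10 windows in all, and PTGIS had none. GGGANNNCC was in 5 of the 10 windows (PTGS2, PTGES, PTGES3, PTGER4 and HPGD) and TGACG in 4 (PTGS2, PTGES3, PTGER2 and HPGD), and TATAAA in 2 (PTGS2 and PTGS1). CACGTG, a form of the E-box, was in an HPGD window and in 7.3% of all windows, and other forms of the E-box were not searched. The AP-1 motif TGANTCA (7.7% of all windows) and the full cyclic AMP response element TGACGTCA (1.8%) were in 0 of the 10. TGACG is contained in TGACGTCA, so these searches overlap, and no match bears on whether a factor binds.

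The first comparison asked how the prostaglandin genes differ between senescent and proliferating cells. The inducible cyclooxygenase PTGS2 and the phospholipase PLA2G4A were higher in senescent cells at each time, with a small rise of PTGES3, while PTGS1, PTGIS and the EP2 receptor gene PTGER2 were lower. At 16 h, 3 of the 8 tested members were higher and 3 lower, where 26.4% of all tested genes were called higher and 25.2% lower. At 36 h, 3 were higher and 4 lower (26.7% and 25.8% of all genes), the added one being PTGES, and with the caspase inhibitor 3 were higher and 3 lower (26.6% and 25.7%). The median log2 change of the 8 tested members was -0.19 at 16 h and -0.48 at 36 h, and that of all tested genes 0.01 and -0.01. The shares of members called were 6 or 7 of the 8 tested and were made of changes in both directions.

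The second comparison asked what the cardiac glycosides did to these genes in senescent cells. Both drugs raised PTGS2 at each time and PTGES at 36 h, and lowered PTGER2 at each time. PTGER4 and PTGES3 fell at 16 h but were not called at 36 h, and PTGS1 was slightly higher at 16 h and lower at 36 h. Digoxin raised 2 members and lowered 3 at 16 h, where 28.3% of all genes were called higher and 31.3% lower. It raised 2 and lowered 2 at 36 h (31.6% and 32.4% of all genes), and raised 2 and lowered 3 at 36 h with the inhibitor (30.3% and 32.1%). Ouabain raised 2 members and lowered 3 at 16 h (25.1% and 28.4% of all genes), at 36 h (30.2% and 30.8%) and at 36 h with the inhibitor (28.9% and 30.6%). The median of the 8 tested members was 0.091 for digoxin and -0.001 for ouabain at 36 h on the log2 scale, beside -0.025 and -0.002 for all tested genes. Scaling by library size in place of TMM moved the median of all genes by -0.31 for digoxin and by -0.22 for ouabain at 36 h, and by -0.11 to -0.15 in the senescence comparisons.

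**Figure D1:**
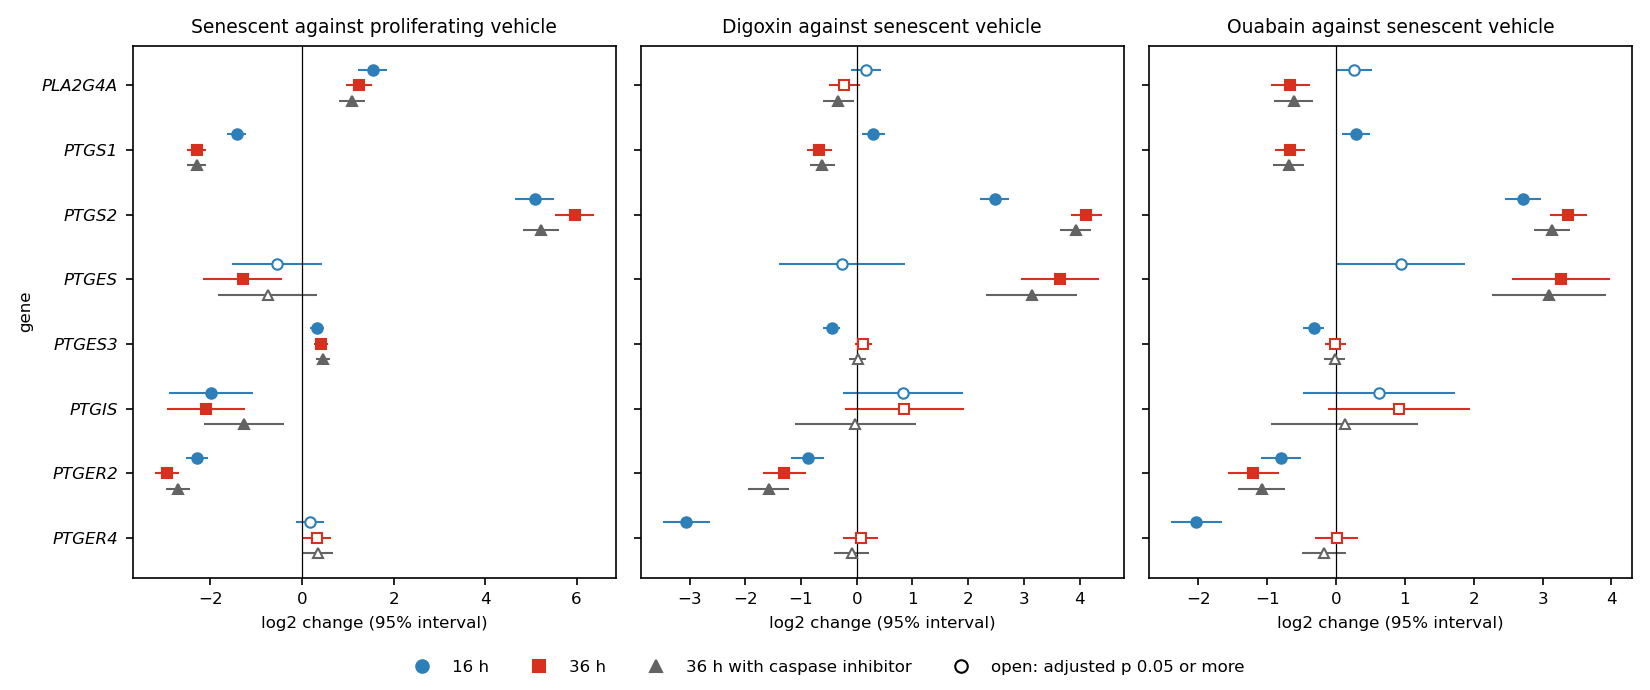
Log2 changes of the 8 tested genes (x axis, with 95% intervals) for senescent against proliferating vehicle cells and for digoxin and ouabain against senescent vehicle cells; filled markers passed the adjusted p of 0.05. PTGS2 lies right of 0 in all 9 comparisons, PTGER2 left of 0 in all 9, and PTGER4 is far left of 0 only in the 16 h drug comparisons.

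PLA2G4A codes for cytosolic phospholipase A2, the enzyme that releases arachidonic acid on calcium signals. Its level was 2.36, 1.67 and 1.42 CPM in the proliferating libraries at 16 h and 5.02, 5.66 and 5.53 CPM in the senescent vehicle libraries of that time. At 36 h these were 2.69, 2.30 and 2.35 CPM against 5.69, 5.61 and 5.99 CPM. Every senescent vehicle library lay above every proliferating one. The log2 change was 1.54 ± 0.15 at 16 h (adjusted p = 1.5e-10), 1.24 ± 0.14 at 36 h (adjusted p = 2.85e-09) and 1.09 ± 0.14 with the inhibitor (adjusted p = 3.1e-08). With ouabain at 36 h PLA2G4A stood at 3.62, 3.52 and 3.82 CPM, below all 3 vehicle libraries, a log2 change of -0.66 ± 0.14 (adjusted p = 0.000106), and with the inhibitor the change was -0.62 ± 0.14 (adjusted p = 0.000238). Digoxin at 36 h left it at 4.86 to 4.97 CPM, a log2 change of -0.22 ± 0.14 that did not pass (adjusted p = 0.152), and under scaling by library size it was -0.54 (adjusted p = 0.000793). With the inhibitor digoxin's change was -0.33 ± 0.13 (adjusted p = 0.0319), and without replicate 2 of senescent vehicle, replicate 1 of digoxin or replicate 3 of digoxin in that arm the adjusted p was 0.167, 0.0706 and 0.0774. At 16 h neither drug's change of PLA2G4A was called (0.17 ± 0.13 with digoxin and 0.26 ± 0.13 with ouabain).

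PTGS2 codes for cyclooxygenase-2, the inducible form of the enzyme that commits arachidonic acid to prostaglandins. It was barely detected in proliferating cells, with 0.987, 0.804 and 0.677 CPM at 16 h and 0.843, 0.620 and 0.618 CPM at 36 h. Senescent vehicle cells had 30.0, 32.0 and 24.3 CPM at 16 h and 45.4, 41.7 and 41.5 CPM at 36 h. The groups did not overlap, and the log2 change was 5.08 ± 0.21 at 16 h (adjusted p = 9.74e-21), 5.95 ± 0.21 at 36 h (adjusted p = 3.87e-23) and 5.22 ± 0.20 with the inhibitor (adjusted p = 4.63e-22). With digoxin PTGS2 reached 175.4, 158.1 and 146.1 CPM at 16 h and 620, 807 and 815 CPM at 36 h. With ouabain it reached 186, 167 and 213 CPM at 16 h and 382, 447 and 504 CPM at 36 h. All drug-treated libraries lay above all vehicle libraries, and the highest group mean was 1077 times the lowest. Against senescent vehicle the log2 change with digoxin was 2.48 ± 0.13 at 16 h (adjusted p = 1.07e-17) and 4.12 ± 0.14 at 36 h (adjusted p = 1.5e-23), and with ouabain 2.71 ± 0.13 (adjusted p = 1.88e-18) and 3.37 ± 0.13 (adjusted p = 1.8e-21). With the inhibitor the digoxin libraries held 739, 685 and 658 CPM and the ouabain libraries 418, 431 and 350 CPM, log2 changes of 3.93 ± 0.13 (adjusted p = 5.01e-23) and 3.13 ± 0.13 (adjusted p = 1.23e-20).

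**Figure D2:**
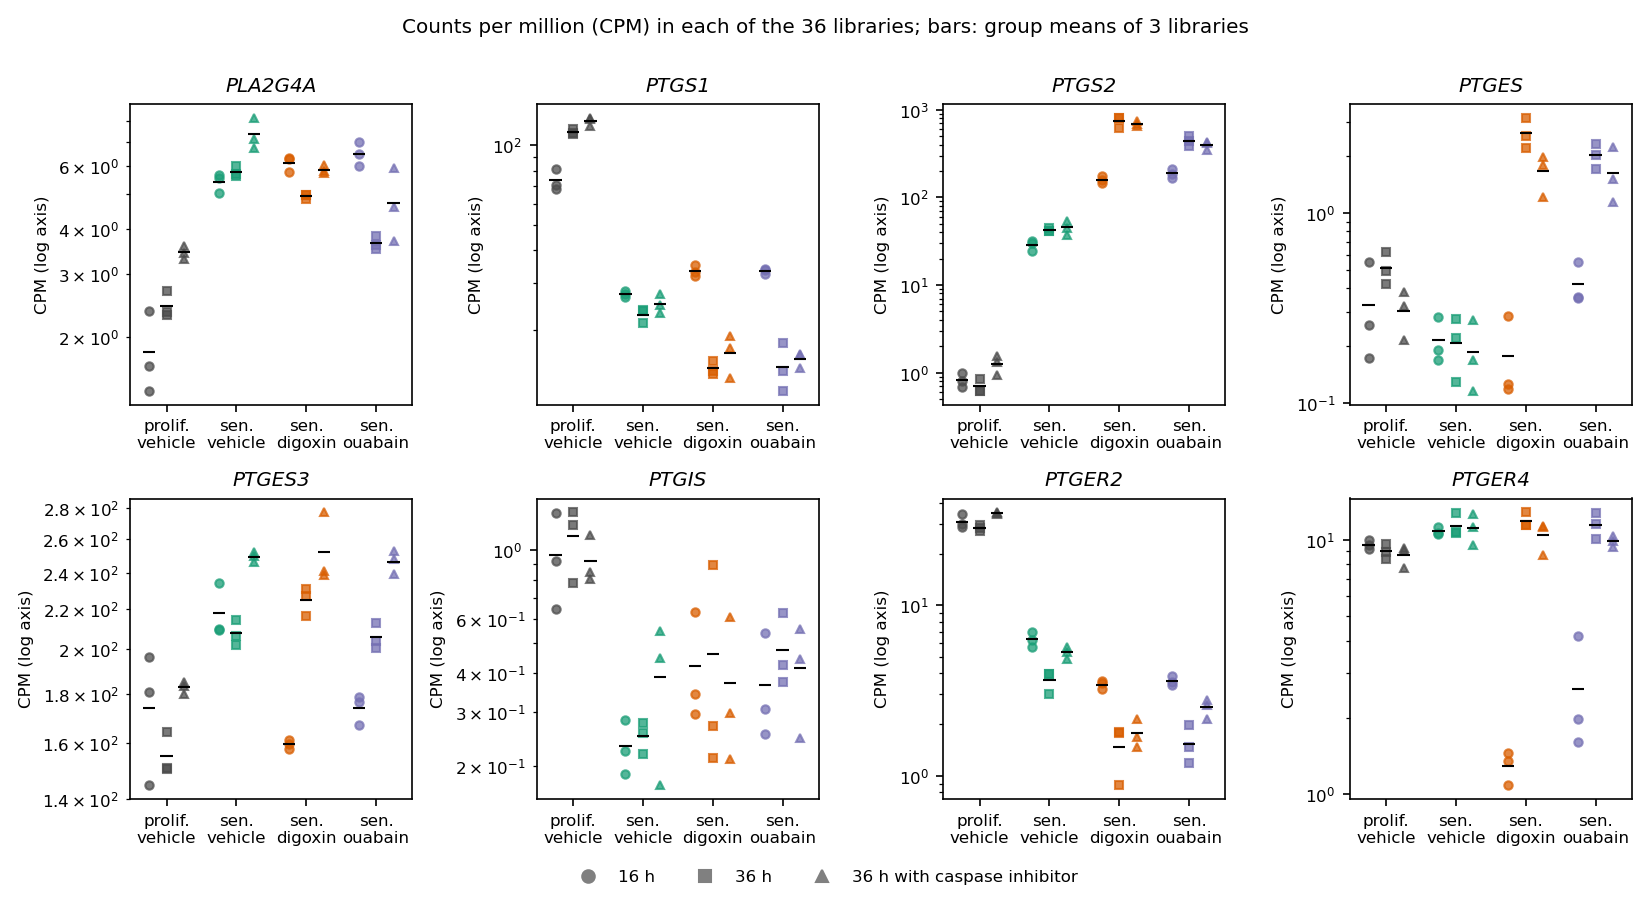
CPM of the 8 tested genes in each of the 36 libraries (y axes, logarithmic), by condition and time, with bars at the group means. PTGS2 climbs from 0.618 CPM in the lowest proliferating library to 815 CPM in the highest digoxin library, while PTGER2 runs from 35.2 CPM down to 0.878 CPM.

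The order of the 12 PTGS2 group means had digoxin at 36 h first (747 ± 111 CPM), overlapping with digoxin and inhibitor (694 ± 41.0 CPM). Ouabain at 36 h (444 ± 61.1 CPM) overlapped with ouabain and inhibitor (399 ± 43.7 CPM), and ouabain at 16 h (188 ± 22.7 CPM) with digoxin at 16 h (160 ± 14.7 CPM). The senescent vehicle groups followed, with 45.6 ± 8.56 CPM with the inhibitor, 42.9 ± 2.16 CPM at 36 h and 28.8 ± 4.03 CPM at 16 h. The proliferating groups came last, at 1.27 ± 0.304, 0.823 ± 0.156 and 0.694 ± 0.129 CPM, and their libraries overlapped with each other.

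PTGS1 codes for cyclooxygenase-1, the form that most tissues express at a steady level. It was highest in proliferating cells, with 68.5, 81.1 and 71.0 CPM at 16 h and 115.5, 111.6 and 109.9 CPM at 36 h, against 26.6, 28.0 and 27.3 CPM and 21.2, 23.7 and 23.5 CPM in senescent vehicle cells. The log2 change was -1.43 ± 0.10 at 16 h (adjusted p = 2.17e-14), -2.30 ± 0.10 at 36 h (adjusted p = 4.13e-20) and -2.29 ± 0.10 with the inhibitor (adjusted p = 6.27e-20). The drug-treated libraries at 16 h lay slightly above vehicle, at 32.1 to 35.2 CPM with digoxin and 32.4 to 33.9 CPM with ouabain, log2 changes of 0.29 ± 0.10 (adjusted p = 0.0131) and 0.29 ± 0.10 (adjusted p = 0.0161). Under scaling by library size these 16 h changes were -0.024 (adjusted p = 0.861) and 0.0083 (adjusted p = 0.958), with no filter on low counts 0.21 (adjusted p = 0.173) and 0.22 (adjusted p = 0.17), and without replicate 1 of digoxin at 16 h digoxin's was 0.25 (adjusted p = 0.0581). At 36 h PTGS1 was lower with both drugs, at 13.5, 15.3 and 14.0 CPM with digoxin and 13.9, 11.7 and 17.8 CPM with ouabain, all below the vehicle libraries. These were log2 changes of -0.68 ± 0.11 (adjusted p = 1.83e-06) and -0.67 ± 0.11 (adjusted p = 1.97e-06), and -0.62 ± 0.11 and -0.69 ± 0.11 with the inhibitor.

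Per kilobase of exon, which allows levels of different genes to be set side by side, PTGS1 was the main cyclooxygenase transcript of proliferating cells and PTGS2 that of drug-treated cells. PTGS2 made up 1.23% ± 0.29 (SD, n = 3) of the summed CPM per kilobase of PTGS1 and PTGS2 in proliferating cells at 16 h and 0.672% ± 0.107 at 36 h. In senescent vehicle cells its share was 53.5% ± 3.55 and 67.4% ± 2.43. With digoxin the share was 84.0% ± 0.61 at 16 h and 98.3% ± 0.21 at 36 h, and with ouabain 86.0% ± 1.70 and 97.1% ± 0.48. PTGS1 fell from 19.4 ± 0.50 to 3.93 ± 0.24 CPM per kilobase between proliferating and senescent vehicle cells at 36 h, while PTGS2 went from 0.132 ± 0.025 to 8.14 ± 0.41. Lengths are the joined exons of all GENCODE transcripts of a gene, so a gene with many alternative exons is set too low.

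**Figure D3:**
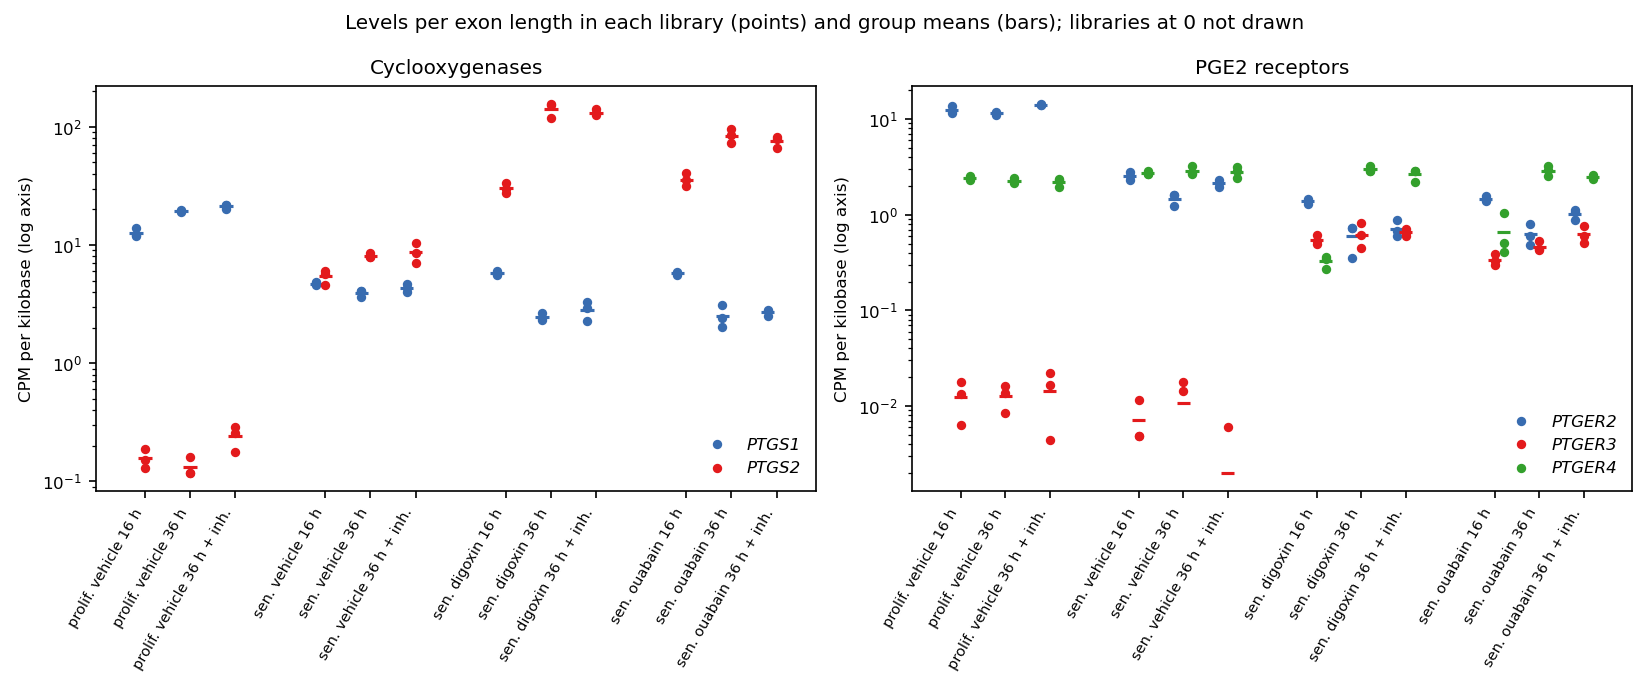
CPM per kilobase of exon (y axes, logarithmic) of the cyclooxygenase genes (left) and of PGE2 receptor genes (right) in each library, with bars at group means; libraries at 0 are not drawn but count in the mean. The points of PTGS1 and PTGS2 swap places between proliferating and drug-treated cells, and PTGER3 is at 0.0222 CPM per kilobase or less in all vehicle libraries and at 0.300 or more in all drug-treated ones.

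PTGES codes for microsomal PGE synthase-1, the inducible synthase that works with cyclooxygenase-2. It was a low gene here, with 2 to 47 counts per library, so its errors are wide. Senescent vehicle libraries held 0.219, 0.276 and 0.128 CPM at 36 h. With digoxin at 36 h the level was 2.56, 3.17 and 2.20 CPM and with ouabain 2.31, 2.03 and 1.70 CPM, so that every drug-treated library lay above every vehicle library. The log2 changes were 3.64 ± 0.34 (adjusted p = 2.01e-11) and 3.26 ± 0.35 (adjusted p = 5.58e-10), and with the inhibitor 3.14 ± 0.40 (adjusted p = 2.21e-08) and 3.09 ± 0.41 (adjusted p = 4.56e-08). At 16 h PTGES was not called with either drug, with a log2 change of -0.26 (95% interval -1.40 to 0.87) for digoxin and 0.94 (-0.0009 to 1.88) for ouabain. In senescence PTGES was lower at 36 h, with a log2 change of -1.30 ± 0.43 (adjusted p = 0.0101) from 0.421, 0.620 and 0.495 CPM in proliferating libraries. Without replicate 3 of senescent vehicle this change was -1.03 with an adjusted p of 0.0699, and at 16 h and with the inhibitor it was not called (adjusted p = 0.386 and 0.264).

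PTGES3 codes for p23, a cochaperone of HSP90 that is also described as a cytosolic PGE synthase. It was the member with the least variation, between 144.6 and 277.4 CPM in all 36 libraries. Senescent vehicle cells held 234.5, 209.9 and 209.2 CPM at 16 h against 196.5, 144.6 and 180.5 CPM in proliferating cells, a log2 change of 0.32 ± 0.075 (adjusted p = 0.000439). With the 2 compared groups fitted alone the adjusted p of that change was 0.106. At 36 h the change was 0.42 ± 0.075 (adjusted p = 1.15e-05) and with the inhibitor 0.45 ± 0.075 (adjusted p = 4.39e-06). Both drugs lowered PTGES3 at 16 h, to 161, 158 and 159.7 CPM with digoxin and 179, 177 and 167 CPM with ouabain, log2 changes of -0.45 ± 0.075 (adjusted p = 3.48e-06) and -0.32 ± 0.075 (adjusted p = 0.000412). At 36 h the changes were 0.11 ± 0.075 and -0.012 ± 0.075, not called (adjusted p = 0.182 and 0.902), and under scaling by library size they were -0.20 (adjusted p = 0.025) and -0.24 (adjusted p = 0.00952), while with these groups fitted alone digoxin's was 0.12 (adjusted p = 0.00763). Of the 5 named pseudogene copies of PTGES3 in the table, PTGES3P3 held 2394 and PTGES3P1 1732 counts over all libraries, so reads of PTGES3 can be split between them.

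PTGIS codes for prostacyclin synthase. With 3 to 30 counts per library it was also a low gene, at 0.644, 1.32 and 0.923 CPM in proliferating cells and 0.223, 0.283 and 0.189 CPM in senescent vehicle cells at 16 h. The groups did not overlap at any time. The log2 change in senescence was -1.99 ± 0.45 at 16 h (adjusted p = 0.000359), -2.09 ± 0.42 at 36 h (adjusted p = 6.94e-05) and -1.27 ± 0.43 with the inhibitor (adjusted p = 0.0135). The last was -1.10 (adjusted p = 0.062) without replicate 1 of proliferating vehicle and -0.90 (adjusted p = 0.105) without replicate 3 of senescent vehicle of that arm. No drug change of PTGIS was called, and the 95% intervals were wide, from -0.21 to 1.92 for digoxin and from -0.11 to 1.94 for ouabain at 36 h.

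PTGER2 codes for the EP2 receptor, which couples PGE2 to cyclic AMP. It was high in proliferating cells, with 34.1, 28.9 and 30.0 CPM at 16 h and 28.3, 27.3 and 29.5 CPM at 36 h. Senescent vehicle cells held 6.25, 5.71 and 6.997 CPM and 3.94, 3.04 and 3.98 CPM. The log2 change was -2.29 ± 0.12 at 16 h (adjusted p = 1.48e-17), -2.96 ± 0.13 at 36 h (adjusted p = 3.71e-20) and -2.71 ± 0.13 with the inhibitor (adjusted p = 3.27e-19). The drugs lowered it further, to 3.48, 3.21 and 3.59 CPM with digoxin and 3.56, 3.87 and 3.42 CPM with ouabain at 16 h, and to 1.80, 0.878 and 1.78 CPM and 1.47, 1.97 and 1.19 CPM at 36 h. All drug-treated libraries lay below the vehicle libraries of their time. The log2 change was -0.88 ± 0.15 (adjusted p = 3.78e-06) and -0.80 ± 0.15 (adjusted p = 1.72e-05) at 16 h, and -1.30 ± 0.19 (adjusted p = 2.62e-07) and -1.20 ± 0.18 (adjusted p = 5.77e-07) at 36 h. With the inhibitor it was -1.58 ± 0.18 for digoxin and -1.08 ± 0.17 for ouabain.

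PTGER4 codes for the EP4 receptor, the second PGE2 receptor that raises cyclic AMP. In senescence its level was 9.96, 9.53 and 9.23 CPM in proliferating and 10.7, 11.2 and 10.5 CPM in senescent vehicle cells at 16 h, where the libraries did not overlap but the change was not called (0.17 ± 0.15, adjusted p = 0.362). At 36 h it was 0.34 ± 0.15 with an adjusted p of 0.0629, and with the inhibitor 0.35 ± 0.16 with 0.0632. DESeq2 called both of the latter, with adjusted p of 0.0343 and 0.0443, and so did fits on the compared groups alone, with 0.0191 and 0.00789. With the drugs PTGER4 fell sharply at 16 h, to 1.36, 1.45 and 1.08 CPM with digoxin and 1.60, 4.17 and 1.98 CPM with ouabain, and all of these lay below the vehicle libraries. The log2 change was -3.06 ± 0.21 with digoxin (adjusted p = 1.16e-14) and -2.03 ± 0.18 with ouabain (adjusted p = 1.88e-11). At 36 h the level was 12.9, 11.41 and 11.44 CPM with digoxin and 10.1, 12.7 and 11.5 CPM with ouabain, overlapping with 10.6, 12.7 and 10.7 CPM in vehicle libraries. The 36 h changes were 0.07 (95% interval -0.24 to 0.38) and 0.01 (-0.30 to 0.32). With the inhibitor they were -0.09 ± 0.16 and -0.18 ± 0.16, not called, and ouabain's was -0.39 (adjusted p = 0.045) under scaling by library size. The gene TTC33 overlaps PTGER4 on the opposite strand in GENCODE, and whether counting used the strand is not given in the sources used here. TTC33 stood at 11.4 ± 0.70 CPM in vehicle and 10.6 ± 0.33 CPM in digoxin libraries at 16 h, a log2 change of -0.11 ± 0.12 that was not called (adjusted p = 0.458), and with ouabain it changed by -0.09 ± 0.12 (adjusted p = 0.566). At 36 h with the inhibitor TTC33 was called lower with digoxin (-0.31 ± 0.12, adjusted p = 0.0289) and ouabain (-0.55 ± 0.13, adjusted p = 0.000269). In senescent vehicle cells the inhibitor raised it by 0.47 ± 0.12 (adjusted p = 0.0133). The part of TTC33 reads in the PTGER4 counts was not tested.

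HPGD codes for 15-hydroxyprostaglandin dehydrogenase, which starts the breakdown of PGE2. It had 9 counts in all 36 libraries together, 1 count in each of 9 libraries and 0 in the other 27. A count of 0 allows up to 3 counts, which is 0.124 to 0.254 CPM in these libraries and covers counting error only. Its counts were 0 in all libraries of 5 groups, among them digoxin and ouabain at 36 h with and without the inhibitor, and no difference between groups was detectable at this depth.

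The drug effects on the members changed with treatment time, which was tested as an interaction (the log2 change at 36 h minus that at 16 h). For digoxin 5 members were called and for ouabain 6, where 42.7% and 35.1% of all genes were called. PTGER4 had an interaction of 3.13 ± 0.26 with digoxin (adjusted p = 1.12e-11) and 2.04 ± 0.24 with ouabain (adjusted p = 2.38e-08), from a fall at 16 h to no called change at 36 h. PTGES had 3.91 ± 0.69 (adjusted p = 1.82e-05) and 2.33 ± 0.63 (adjusted p = 0.0039), and PTGS2 had 1.65 ± 0.18 (adjusted p = 1.7e-09) and 0.66 ± 0.17 (adjusted p = 0.00299). These cyclooxygenase-2 and PGE synthase-1 genes thus had larger drug changes at the later time. PTGES3 had 0.56 ± 0.11 (adjusted p = 4.32e-05) and 0.31 ± 0.11 (adjusted p = 0.0201). The ouabain value of PTGES3 was 0.26 with an adjusted p of 0.0722 without replicate 1 of senescent vehicle at 16 h, 0.28 (0.052) without replicate 3 of ouabain at 16 h and 0.29 (0.05) without replicate 1 of ouabain at 36 h. PTGS1 moved the other way, with -0.97 ± 0.15 (adjusted p = 2.05e-06) and -0.96 ± 0.15 (adjusted p = 3.45e-06), and so did PLA2G4A with ouabain, at -0.92 ± 0.19 (adjusted p = 0.000226). The interactions of PLA2G4A with digoxin (-0.39 ± 0.19, adjusted p = 0.0936) and of PTGER2 with both drugs (-0.42 ± 0.25 and -0.40 ± 0.24) were not called. The 36 h and 16 h changes of digoxin and ouabain rest on the same vehicle libraries, so the 2 drugs' values are not independent of each other.

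**Figure D4:**
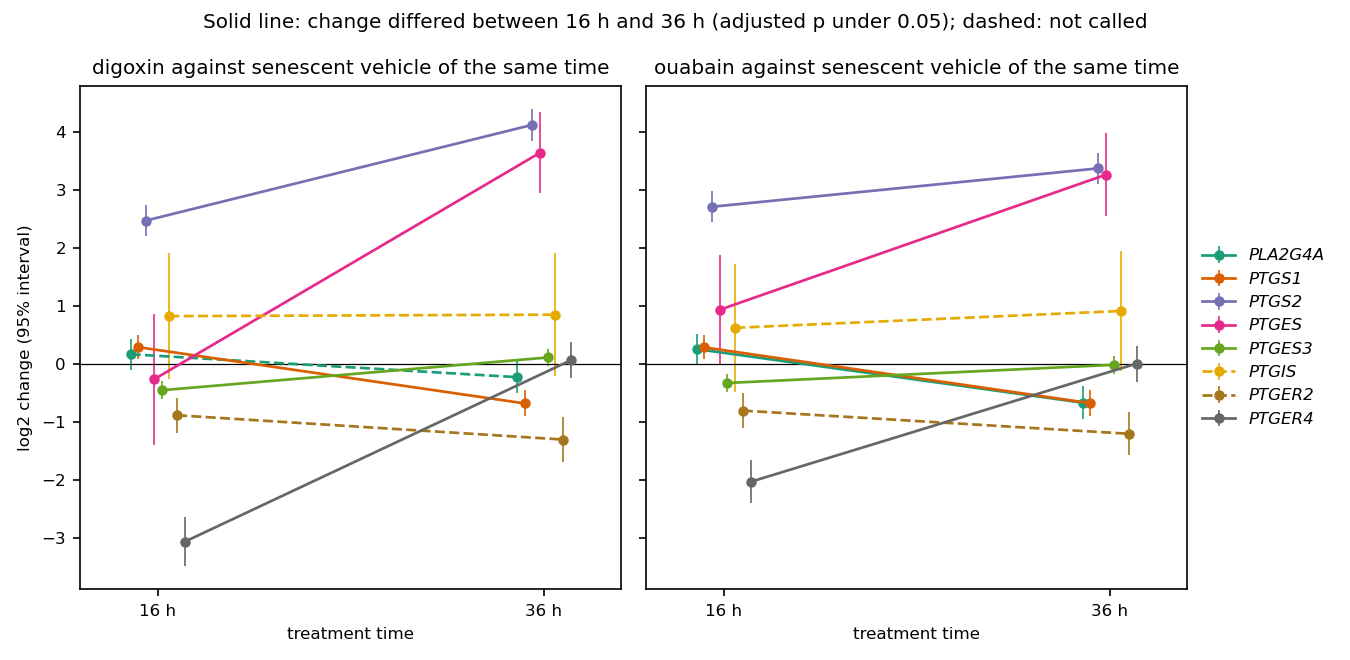
Log2 change with digoxin (left) and ouabain (right) against senescent vehicle of the same time (y axis, with 95% intervals) at 16 h and 36 h for the 8 tested genes; solid lines mark a called interaction with time. PTGER4 rises from -3.06 and -2.03 to about 0, PTGES and PTGS2 rise, and PTGS1 crosses 0 downward.

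Time without drug was compared within senescent vehicle and within proliferating cells. In senescent vehicle cells 2 members were called between 16 h and 36 h, where 1.54% of all genes were called. PTGER2 fell by 0.79 on the log2 scale (SE 0.14, adjusted p = 0.00111) and PTGS2 was higher by 0.58 ± 0.13 (adjusted p = 0.0114). The change of PTGS2 was 0.47 (adjusted p = 0.135) without replicate 3 of the 16 h group and 0.53 (adjusted p = 0.0781) without replicate 1 of the 36 h group. In proliferating cells 1 member was called, where 8.14% of all genes were called. This was PTGS1, higher at 36 h by 0.61 ± 0.09 (adjusted p = 2.79e-05), and fitted on these groups alone it was 0.63 with an adjusted p of 0.0636. In senescent vehicle cells PTGS1 was -0.26 (adjusted p = 0.297), and -0.24 (adjusted p = 0.0422) with these groups alone. Without replicate 2 of the 16 h proliferating group PTGES3 was also called, at -0.28 (adjusted p = 0.00258), and without replicate 1 of that group PLA2G4A at 0.66 (adjusted p = 0.03).

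Ouabain and digoxin were compared directly in 3 matched arms, although their doses are not given. At 16 h 1 member was called, where 4.94% of all genes were called, at 36 h 1 (5.36%) and with the inhibitor 1 (1.45%). PTGS2 was lower with ouabain at 36 h, with a log2 difference of -0.75 ± 0.12 (adjusted p = 0.000182), and with the inhibitor, with -0.80 ± 0.12 (adjusted p = 0.000198). In both arms all ouabain libraries lay below all digoxin libraries. At 16 h the PTGS2 difference was 0.24 (95% interval -0.01 to 0.48, adjusted p = 0.306) and the libraries overlapped. PTGER4 was higher with ouabain at 16 h, by 1.03 ± 0.25 (adjusted p = 0.0124), and this rested on replicate 2 of ouabain, at 4.17 CPM, which is the library that stood apart from its group. Without that library the difference was 0.46 (adjusted p = 0.628), without both libraries that stood apart 0.46 (adjusted p = 0.486), and without replicate 3 of digoxin 0.91 (adjusted p = 0.0767). With the 2 groups fitted alone the adjusted p was 0.361. For PTGS1 the 95% interval of the difference was -0.21 to 0.20 at 16 h and -0.23 to 0.24 at 36 h, and for PTGER2 -0.25 to 0.41 and -0.36 to 0.56. PLA2G4A was -0.44 at 36 h with a 95% interval of -0.74 to -0.14 and an adjusted p of 0.0753, and PTGES at 16 h was 1.2 with an interval of 0.18 to 2.22 and an adjusted p of 0.192.

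**Figure D5:**
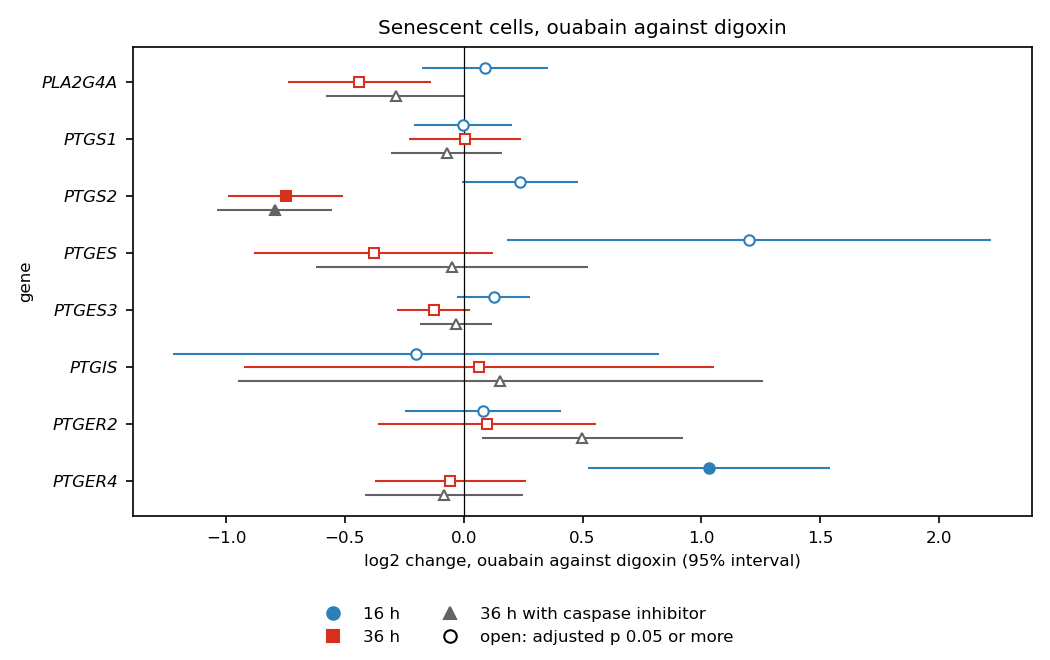
Log2 difference of ouabain against digoxin in senescent cells (x axis, with 95% intervals) for the 8 tested genes at 16 h, at 36 h and at 36 h with the caspase inhibitor; filled markers passed the adjusted p of 0.05. PTGS2 is left of 0 in both 36 h arms, and the filled PTGER4 marker at 16 h rests on replicate 2 of ouabain.

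Called changes with the caspase inhibitor were seen for PTGER2 and PTGES3 only, with log2 changes of 0.26 to 0.66. In senescent vehicle cells 2 members were called (7.41% of all genes), with PTGER2 higher by 0.54 ± 0.15 (adjusted p = 0.0205) and PTGES3 by 0.26 ± 0.07 (adjusted p = 0.0251). In ouabain-treated cells 2 were called (8.89% of all genes), the same genes, with PTGER2 higher by 0.66 ± 0.21 (adjusted p = 0.0396) and PTGES3 by 0.26 ± 0.08 (adjusted p = 0.0249). Not all of these calls held when single libraries were left out. PTGES3 in senescent vehicle cells kept an adjusted p under 0.05 only without replicate 1 of the 36 h group, and the other 5 omissions gave 0.067 to 0.108. PTGER2 in these cells had 0.146 without replicate 2 of the 36 h group, and 0.0731 and 0.0985 without replicates 1 and 2 of the inhibitor group. In ouabain-treated cells, leaving out replicate 1 or 3 of either group gave 0.111 to 0.164 for PTGER2. For PTGES3 there, leaving out replicate 2 or 3 of the 36 h group or replicate 1 or 2 of the inhibitor group gave 0.0736 to 0.0879. In proliferating cells 0 members were called by edgeR (3.59% of all genes), with 4 at an unadjusted p under 0.05 (PLA2G4A, PTGES3, PTGER2 and PTGS2), and DESeq2 called 4. In digoxin-treated cells 0 were called (0.877% of all genes), with 2 at an unadjusted p under 0.05 (PTGES and PTGES3) and 0 by DESeq2. Whether the inhibitor changed a drug effect was tested as an interaction, and 0 members were called for digoxin (0.246% of all genes) and for ouabain (0.15%), with 0 at an unadjusted p under 0.05 and 0 by DESeq2. For PTGS2 the 95% interval of that interaction was -0.54 to 0.16 with digoxin and -0.59 to 0.11 with ouabain.

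The other genes of the pathway were taken from 7 lists with 83 genes, of which 66 were tested. The lists were chosen with earlier results of these data known, so their shares beside those of all genes are a description and not a test. In senescence at 16 h 22 of these (33.3%) were called higher and 22 (33.3%) lower, beside 26.4% and 25.2% of all genes, and at 36 h 27 (40.9%) and 24 (36.4%), beside 26.7% and 25.8%. With digoxin at 36 h 30 (45.5%) were higher and 23 (34.8%) lower, beside 31.6% and 32.4%, and with ouabain 27 (40.9%) and 23 (34.8%), beside 30.2% and 30.8%. The single lists that follow have 5 to 21 tested genes, and their 36 h drug counts are to be read against these shares of all genes. The median log2 change over the 66 genes was 0.14 with digoxin and -0.03 with ouabain at 36 h. Among the 5 tested prostanoid receptor genes outside the 9 members, the largest called drug change was that of PTGER3, the EP3 receptor gene, with a log2 change of 6.16 ± 0.39 with digoxin (adjusted p = 1.78e-15) and 5.47 ± 0.42 with ouabain (adjusted p = 4.07e-13) at 16 h, and 5.67 ± 0.35 and 5.24 ± 0.36 at 36 h. PTGER3 had 4 counts in all 3 senescent vehicle libraries at 16 h and 265 in the digoxin libraries, so the size of its fold is uncertain. Of the other 4 tested receptors, 2 were lower with digoxin at 36 h, and 1 was higher and 1 lower with ouabain. PTGFR, the prostaglandin F receptor gene, fell with digoxin (-1.75 ± 0.21 at 16 h and -0.86 ± 0.21 at 36 h) and with ouabain (-1.23 ± 0.20 and -0.94 ± 0.20). PTGIR, the prostacyclin receptor gene, fell with digoxin at 36 h by 0.85 (SE 0.24, adjusted p = 0.00274). PTGFRN, which codes for a negative regulator of the prostaglandin F receptor, was higher with ouabain at 36 h by 1.52 ± 0.54 (adjusted p = 0.0148) and is named here after its values were seen. Its mean was under 1 CPM both with ouabain and in senescent vehicle cells at 36 h, below the level set for naming genes. The size of its fold is therefore uncertain.

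Among the PGE2 receptor genes per kilobase of exon, PTGER2 made up 83.7% ± 0.84 of the sum of PTGER2, PTGER3 and PTGER4 in proliferating cells at 16 h. In senescent vehicle cells at 16 h its share was 48.2% ± 3.32, beside 51.65% ± 3.32 for PTGER4, and the shares of these 2 genes overlapped between libraries. In senescent vehicle cells at 36 h PTGER4 held the largest share, 65.8% ± 5.5, beside 34.0% ± 5.5 for PTGER2 and 0.243% ± 0.215 for PTGER3. With digoxin at 36 h the share of PTGER2 was 14.0% ± 4.12, that of PTGER4 71.3% ± 5.14 and that of PTGER3 14.7% ± 4.25. With ouabain at 36 h the shares were 15.6% ± 2.98, 72.6% ± 1.47 and 11.8% ± 1.76. At 16 h, when PTGER4 was at its lowest, PTGER2 held 61.4% ± 0.99 with digoxin and 60.3% ± 6.35 with ouabain. The EP1 receptor gene PTGER1 was below the filter, at 0.403 CPM or less in all group means.

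Among 9 tested other synthases and reductases, 4 were higher and 4 lower with each drug at 36 h. AKR1C1, AKR1C2 and AKR1C3, which code for aldo-keto reductases that include a prostaglandin F synthase (AKR1C3), were higher with digoxin at 36 h by 2.71 ± 0.13, 2.33 ± 0.15 and 1.92 ± 0.21 and with ouabain by 2.93 ± 0.13, 2.64 ± 0.15 and 2.73 ± 0.20. At 16 h none of the 3 was called with either drug. These genes are related in sequence, AKR1C1 and AKR1C2 most closely, so reads may be split among them. In senescence at 36 h AKR1C1 fell by 1.44 (SE 0.12), AKR1C2 by 1.38 (SE 0.15) and AKR1C3 by 2.47 (SE 0.20), and at 16 h AKR1C3 fell by 0.85 (SE 0.23) and AKR1C2 by 0.42 (SE 0.16). AKR1B1, another reductase with prostaglandin F synthase activity, was higher in senescence by 1.31 ± 0.10 at 16 h and 1.77 ± 0.10 at 36 h. Per kilobase of exon PTGES3 held 87.1% to 95.3% of the summed group means of the 3 PGE synthase genes, and PTGES 1.97% ± 0.33 in its highest group, digoxin at 36 h.

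Of 9 tested genes for the release of arachidonic acid, 4 were higher and 3 lower with each drug at 36 h. PLAAT3, a phospholipase of adipose tissue and other cells, fell in senescence at 36 h by 1.67 (SE 0.24) and was higher by 2.13 ± 0.24 with digoxin and 2.60 ± 0.23 with ouabain. PLA2G4C, a cytosolic phospholipase A2 of the same family as PLA2G4A, was higher by 0.91 ± 0.11 with digoxin and 0.96 ± 0.11 with ouabain, and DAGLA, a diacylglycerol lipase, fell by 1.96 (SE 0.42) and 1.60 (SE 0.39). Of 8 genes for transport and breakdown, 4 were higher and 3 lower with each drug at 36 h. SLCO4A1 was higher by 2.23 ± 0.21 with digoxin and 2.30 ± 0.21 with ouabain, and CBR3 changed by -2.27 ± 0.48 with digoxin. SLCO2A1, which codes for the prostaglandin uptake transporter, was higher by 1.97 ± 0.37 with digoxin and 2.09 ± 0.36 with ouabain. Its mean in senescent vehicle libraries at 36 h was 0.351 CPM, so the size of its fold is uncertain. ABCC4, an exporter of prostaglandins, fell by 1.67 (SE 0.08) with digoxin and 1.77 (SE 0.08) with ouabain. Of 5 tested genes of the lipoxygenase and leukotriene branch, 4 were higher and 1 lower with digoxin and 3 and 1 with ouabain. ALOXE3 had the largest called change of these, higher by 3.08 ± 0.22 with digoxin and 3.09 ± 0.22 with ouabain. CYSLTR1, a receptor of cysteinyl leukotrienes, was higher by 1.54 ± 0.18 and 1.21 ± 0.18.

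Of 9 genes for HSP90 chaperones and for proteins that bind the mRNA of PTGS2 and others, 6 were higher and 1 lower with digoxin at 36 h, and 4 and 2 with ouabain. ZFP36, which codes for tristetraprolin, a protein that speeds the decay of such mRNAs, was higher by 4.95 ± 0.22 with digoxin (5.51 ± 1.505 CPM in vehicle and 172 ± 28.7 CPM in digoxin libraries) and by 4.70 ± 0.22 with ouabain, at the same time as PTGS2. In senescence ZFP36 fell by 0.99 (SE 0.23) at 16 h and by 0.79 (SE 0.23) at 36 h. Of 21 genes of cyclic AMP formation, breakdown and PKA, 7 were higher and 9 lower with digoxin at 36 h, and 6 and 9 with ouabain. The phosphodiesterase gene PDE3A was higher by 4.37 ± 0.37 with digoxin and 3.43 ± 0.41 with ouabain. Its mean was 0.141 CPM in senescent vehicle, 3.07 CPM in digoxin and 1.60 CPM in ouabain libraries at 36 h, so the size of its fold is uncertain. ADCY7, an adenylyl cyclase, fell by 2.36 (SE 0.21) with digoxin and 1.96 (SE 0.19) with ouabain. In senescence at 36 h PDE4D, a phosphodiesterase gene, was higher by 3.00 ± 0.14 and PDE7B, another, fell by 3.79 (SE 0.20).

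The genes with the pattern most like a member were taken as the 3 with the highest Pearson r over the 12 group means of log2 CPM, which share their libraries and depth. For PTGS2 these were PDE7B-AS1 (r = 0.996) and 2 unnamed genes, ENSG00000227363 (r = 0.997) and ENSG00000235782 (r = 0.996). For PTGER4 they were LCMT2, CSTF1 and ZBTB39 (r = 0.992 to 0.994), and for PTGER2 CAV1, PDE1C and NREP (r = 0.993 to 0.994). PTGS1 was most like PRDX6, NLRP1 and HNRNPA1 (r = 0.988 to 0.993), and PTGES like MTA2, ST3GAL6 and H1-10 (r = 0.976 to 0.982). PTGES3 was most like RAB10, ADO and SPOPL (r = 0.971 to 0.981), PTGIS like CAPS, ZBTB46 and AASS (r = 0.973 to 0.984), and PLA2G4A like UQCRC2, SLC39A9 and HECTD2 (r = 0.967 to 0.969). Among the members themselves r was -0.98 between PTGS2 and PTGER2, -0.93 between PTGS2 and PTGS1 and 0.96 between PTGS1 and PTGER2. PTGER4 had r between -0.28 and 0.58 with the other 7 tested members.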

How the data were processed

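RNA was isolated with TRIzol and RNeasy columns and made into stranded mRNA libraries, per the labels' protocols. The submitters' processing notes name TopHat2 2.0.11, featureCounts and the hg19 build. Which annotation release was counted, and with what strand setting, is not given in the sources used here. Raw counts were deposited by the authors for 57232 Ensembl genes in 36 libraries. Gene names came from a reference table of names for 51058 identifiers and from GENCODE for 309. Types and exon lengths came from GENCODE and promoters from RefSeq. The exon lengths may differ from those of the annotation that was counted, which limits the values per kilobase. Library sizes were scaled by TMM in edgeR 4.0.16 (R 4.3.3), low genes were removed with filterByExpr, and 18696 genes were tested with the quasi-likelihood test in a fit of all 12 groups, with 18 comparisons and 4 interactions, each adjusted by Benjamini-Hochberg at 0.05. Intervals are at 95%. The code was tested on simulated data. Besides the 9 members, the genes named are up to 3 called genes per pathway list and comparison with the largest change and at least 1 CPM, plus the 3 most alike per member. PTGER1 and PTGES2 complete families, and TTC33 overlaps a member. ABCC4 with digoxin and PTGFRN, which was under 1 CPM, were added after their values were seen. Members and lists were chosen with earlier results of these data known. Alternatives were DESeq2 1.42.0, RLE and library-size scaling, no filter, the compared groups alone, each replicate left out, a replicate block and, added after seeing the data, both deviating libraries left out. Same-numbered libraries were not treated as paired.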

Additional observations from a re-analysis of the deposited data

Results flagged for a closer look

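These members had a drug effect that differed between 36 h and 16 h, tested as an interaction in edgeR over all 18696 genes. For digoxin the log2 difference of the effects was 3.91 for PTGES, 3.13 for PTGER4, 1.65 for PTGS2, 0.56 for PTGES3 and -0.97 for PTGS1. For ouabain it was 2.33 for PTGES, 2.04 for PTGER4, 0.66 for PTGS2, 0.31 for PTGES3, -0.92 for PLA2G4A and -0.96 for PTGS1. Both drugs were set against the same vehicle libraries. Groups of 3 libraries are too small for a search for single outlying values.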

How the results depend on the processing

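Of 1248 member results with 1 replicate left out, 1214 stayed on their side of the threshold, 30 lost the call and 4 gained one. The numbers that stayed on their side were 147 of 154 with DESeq2, 173 of 176 with RLE scaling, 167 of 176 with the compared groups alone, 169 of 176 with no filter, 164 of 176 with library-size scaling and 38 of 40 with both deviating libraries left out. DESeq2 gave no adjusted p for the rest of the 176 results, and its numbers of members called take these as not called. Results not called in either fit changed sign 75 times with 1 replicate left out, 6 with DESeq2, 5 with RLE scaling, 2 with the compared groups alone, 5 with no filter, 8 with library-size scaling, 1 with the replicate block and 1 with both deviating libraries left out. The causes were not tested. Of results called in either fit, library-size scaling turned the sign of PTGS1 with digoxin at 16 h (-0.024) and PTGES3 with digoxin at 36 h (-0.20) and with the inhibitor (-0.23).

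DESeq2 called 495 genes for ouabain against digoxin with the inhibitor (271 as reported), 1391 genes and 4 members for the inhibitor in proliferating cells (671 and 0), 301 for it in digoxin-treated cells (164), and 129 and 63 for the inhibitor's interaction with digoxin and ouabain (46 and 28). RLE scaling called 2 members for the inhibitor in proliferating cells and 11 genes for its interaction with digoxin. Library-size scaling called 0 members for the inhibitor in senescent vehicle and in ouabain-treated cells (2 and 2) and 12 genes for its interaction with digoxin. With no filter the inhibitor called 415 genes in proliferating and 668 in senescent vehicle cells (1385), 0 and 1 members in senescent vehicle and ouabain-treated cells, and 22 and 86 genes for the interactions.

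With the compared groups alone, ouabain against digoxin called 3 genes and 0 members at 16 h (923 and 1), 2080 genes at 36 h (1003) and 811 with the inhibitor. The inhibitor called 5490 genes in senescent vehicle, 417 in digoxin-treated and 2688 genes and 1 member in ouabain-treated cells (1662 and 2), and 755 and 625 for the interactions. Time called 84 genes and 0 members in proliferating (1522 and 1) and 1086 genes in senescent vehicle cells (287). With both deviating libraries left out, 287 genes and 0 members were called for ouabain against digoxin at 16 h, and 2800 genes and 2 members for time in proliferating cells.

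With single replicates left out, genes called ranged from 1014 to 2651 for time in proliferating and 130 to 148 in senescent vehicle cells. For the inhibitor they ranged from 126 to 708 in proliferating, 547 to 895 in senescent vehicle, 95 to 117 in digoxin-treated and 776 to 1251 in ouabain-treated cells, and for its interactions from 4 to 30 and from 8 to 20. For ouabain against digoxin they ranged from 136 (without ouabain replicate 2) to 1700 at 16 h, 394 to 666 at 36 h and 91 to 314 with the inhibitor. Members called ranged from 1 to 2 for time in either vehicle group, 0 to 2 for the inhibitor in senescent vehicle and in ouabain-treated cells, and 0 to 1 for ouabain against digoxin at 16 h.

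The deviations of same-numbered libraries correlated between -0.207 and 0.26 (median -0.003), with 7 of 198 pairs over 0.1. Most such pairs thus had little deviation in common. These values cannot show whether same-numbered libraries came from the same culture or batch, which the labels do not state. A replicate block left all 176 member results on their side of the threshold and called 17 genes for the inhibitor's interaction with ouabain. Low counts limit PTGES, PTGIS and HPGD.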
